A study of Mus musculus with 6 samples.

Results

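The nexin-dynein regulatory complex and the axoneme ruler were followed through 7 genes, *Ccdc39*, *Ccdc40*, *Drc1*, *Ccdc65*, *Gas8*, *Drc7* and *Tcte1*. They were taken by symbol from the 20483 genes of the count table, and all 7 were present. The libraries came from primary tracheal epithelial cells of C57BL/6 mice, 12 weeks old, which had been expanded and then differentiated at air-liquid interface (ALI). Cells of 3 *WT/WT* mice and of 3 littermates homozygous for a missense allele of *Dnaaf5* (*MIS/MIS*) were profiled by scRNA-Seq, in which each captured transcript carries a unique molecular identifier (UMI) and is counted once. The GEO labels call the second genotype only a DNAAF5 mutant, every cell of both genotypes comes from culture, and no other allele or agent is named. The 23871 cells had been placed by the authors in 16 cell types, of which Multiciliated1 to Multiciliated4 held 1108, 857, 2712 and 146 cells. The unit of level is CPM, counts per 1e+06, here a gene's UMIs scaled by the UMI total of the cells summed.

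Motile cilia are built on outer doublet microtubules that slide against each other under dynein motors. The nexin-dynein regulatory complex links neighboring doublets and passes control signals to the inner dynein arms. *Ccdc39* and *Ccdc40* encode a coiled-coil pair that lies along the doublet and sets the spacing at which dynein arms, radial spokes and the regulatory complex repeat, hence the name ruler. *Drc1*, *Ccdc65* (also called Drc2) and *Gas8* (Drc4) encode the rod-like subunits at the base of the complex, and *Drc7* and *Tcte1* (Drc5) encode subunits of the part that reaches toward the next doublet. Variants in *CCDC39*, *CCDC40*, *DRC1*, *CCDC65* and *GAS8* are known causes of primary ciliary dyskinesia. *Dnaaf5* itself encodes a cytoplasmic factor needed to assemble dynein motors before they enter the cilium.

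The 7 genes lie on 6 chromosomes of GRCm38 in the GENCODE M21 annotation. *Ccdc39* is read from the minus strand of chromosome 3 (33812362 to 33844310) and *Ccdc40* from the plus strand of chromosome 11 (119228572 to 119265238). *Drc1* is on chromosome 5 from 30281388 to 30366695, *Ccdc65* on chromosome 15 from 98708207 to 98723336, and *Tcte1* on chromosome 17 from 45523434 to 45542680, all on the plus strand. Chromosome 8 holds both *Gas8*, 123518834 to 123536650, and *Drc7*, 95055103 to 95078141, again on the plus strand. Their longest coding transcripts have 20, 21, 17, 8, 5, 11 and 18 exons in the order in which the genes are given here. The 3′ end of *Ccdc39* overlaps *Ttc14*, which lies on the opposite strand from 33799832 to 33814860, and the sources used here do not state whether reads were counted by strand. *Ttc14* stood at 60.2 to 116 CPM in the 12 other cell types, where *Ccdc39* stood at 0.898 to 5.78 CPM. *Tcte1* overlaps *Tmem151b* on the opposite strand, which held 0 to 2.33 CPM in any cell type. *Ccdc39* also overlaps *Gm43140* on the opposite strand. On the same strand, *Gas8* lies inside *Gm20388* and overlaps *Gm22314*, neither of which is in the count table. *Drc1* overlaps *Gm43755* on the same strand, which is in the count table. The part of these overlaps in the counts was not tested.

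Cilia genes are commonly controlled by RFX factors, which bind X-box motifs, and by the forkhead factor FOXJ1. The promoters of 6 of the 7 genes, each from 250 bases before to 50 bases after the start of transcription, were found in a RefSeq table of GRCm38.p6, and *Tcte1* is missing from it. Shown here are the 4 that hold the X-box core in its form GTTGCC or GTTGCT on either strand, with those letters in capitals. GTTGCC is in 2 of the 6 promoters and GTTGCT in 3, but GTTGCT was added to the motifs after these promoters had been read. Of the genes with a promoter in the table, 14.1% have GTTGCC and 16.7% have GTTGCT. The share with either form was not computed.
*Ccdc39*: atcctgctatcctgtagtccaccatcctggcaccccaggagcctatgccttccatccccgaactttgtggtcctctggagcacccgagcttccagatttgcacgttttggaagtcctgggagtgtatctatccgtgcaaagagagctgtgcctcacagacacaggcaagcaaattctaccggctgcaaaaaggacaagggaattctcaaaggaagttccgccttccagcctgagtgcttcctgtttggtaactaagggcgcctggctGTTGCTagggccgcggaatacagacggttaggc
*Ccdc65*: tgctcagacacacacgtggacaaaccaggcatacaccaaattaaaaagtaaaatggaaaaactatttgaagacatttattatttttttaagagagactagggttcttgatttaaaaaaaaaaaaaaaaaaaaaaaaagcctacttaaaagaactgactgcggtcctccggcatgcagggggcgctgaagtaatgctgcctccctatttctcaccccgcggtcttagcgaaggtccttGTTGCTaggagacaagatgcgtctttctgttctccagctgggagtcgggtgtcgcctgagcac
*Gas8*: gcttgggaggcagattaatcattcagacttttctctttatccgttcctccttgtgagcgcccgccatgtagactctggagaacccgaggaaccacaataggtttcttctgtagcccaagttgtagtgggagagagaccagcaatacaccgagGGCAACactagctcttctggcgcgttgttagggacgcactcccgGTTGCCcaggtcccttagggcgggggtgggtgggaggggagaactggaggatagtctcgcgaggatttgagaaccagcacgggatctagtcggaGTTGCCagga
*Drc1*: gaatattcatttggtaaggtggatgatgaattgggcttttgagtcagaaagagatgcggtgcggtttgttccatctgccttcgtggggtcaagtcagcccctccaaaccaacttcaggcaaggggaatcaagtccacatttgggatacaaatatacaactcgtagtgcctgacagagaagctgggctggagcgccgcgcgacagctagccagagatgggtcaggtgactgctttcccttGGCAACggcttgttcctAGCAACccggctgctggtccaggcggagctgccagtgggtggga
These windows are chr3:33844261-33844560 on the minus strand and chr15:98707944-98708243, chr8:123518585-123518884 and chr5:30281143-30281442 on the plus strand. *Gas8* holds GTTGCC 3 times, starting at positions -98, -54 and 40 counted from the start of transcription. The first of these is on the opposite strand and is printed as its reverse complement GGCAAC. *Drc1* holds it once, at -11, beside 1 GTTGCT at 6, and both lie on the opposite strand. *Ccdc65* and *Ccdc39* each hold 1 GTTGCT, at -13 and 17. *Ccdc40* and *Drc7* hold neither. The looser form GTTNCC, which includes every GTTGCC, is in 4 of the 6 promoters and in 48.8% of all genes. The forkhead core TGTTTAC is in 0 of the 6 and in 4.05% of all genes. These are matches of letters, not measured binding.

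Of the 7 genes, 6 were almost restricted to the multiciliated cell types by level, whereas *Gas8* was not. The 4 multiciliated types were the 4 highest of the 16 for each of the 7 genes. They held 20.0% of all UMIs in the table but 98.7% of the 4064 UMIs of *Tcte1*, 98.0% of the 19796 of *Drc1*, 98.0% of the 16347 of *Ccdc40*, 97.8% of the 10129 of *Drc7*, 97.5% of the 31574 of *Ccdc39* and 95.5% of the 9335 of *Ccdc65*. For *Gas8* the share was 61.7% of 28634 UMIs. Pooled over all mice, *Tcte1* stood at 26.8 CPM in multiciliated cells and 0.0884 CPM in all others, *Drc1* at 130 and 0.649 CPM, and *Gas8* at 118 and 18.3 CPM, a ratio of 6.47. The cell types were defined from all genes of these cells, so these differences are a description and carry no test.

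**Figure D1:**
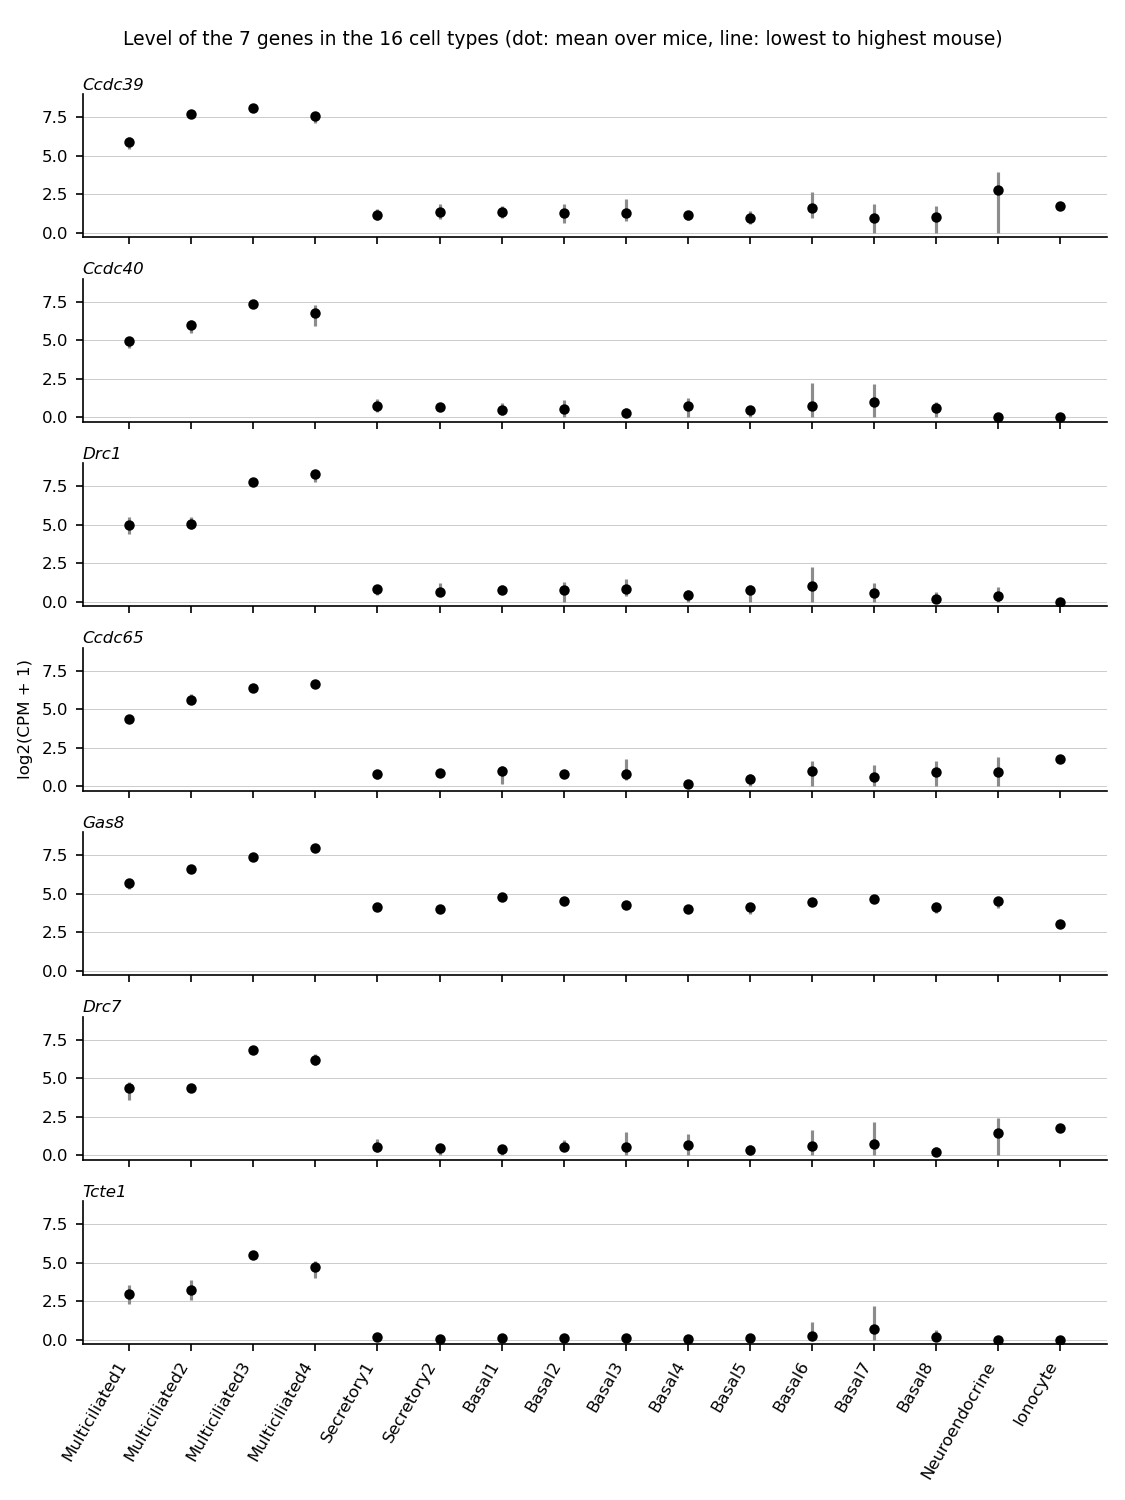
Level of each gene, as log2(CPM + 1), in the 16 cell types; dots are means over mice with at least 10 cells of the type and lines run from the lowest to the highest mouse. All 7 genes are highest in the 4 multiciliated types, and *Gas8* alone stays well above 0 in the secretory and basal types.

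*Gas8*, whose product is also described at the base of non-motile cilia, was measured in each of the other 12 types, from 7.0 CPM in the ionocytes of 1 mouse to 26.8 ± 2.85 CPM in Basal1 (SD, n = 6 mice). Among the UMIs of the 7 genes, *Gas8* made up 83.2% in all other cells but 16.6% in multiciliated cells. *Ccdc39*, by contrast, made up 6.05% and 28.8%. The next highest level of any of the other 6 genes outside multiciliated cells was that of *Ccdc39* in neuroendocrine cells, 5.78 ± 7.51 CPM (SD, n = 3 mice), where the mice ranged from 0 to 14.3 CPM. For these 6 genes, neighbors in the order of the 12 other types differed by less than the larger of their SDs, except in 2 pairs with the ionocytes, of which 1 mouse alone had enough. These were *Ccdc40* in Basal3 (0.205 CPM) against ionocytes (0 CPM), and *Ccdc65* in ionocytes (2.33 CPM, 1 UMI) against Basal1 (1.00 ± 0.532 CPM).

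Within the multiciliated types the 7 genes did not share 1 order. Multiciliated2 is the type in which the early genes stood highest, as in the 451 CPM of *Ccno* and the 358 CPM of *Deup1*, where Multiciliated3 had 8.02 and 13.9 CPM. *Ccdc39* reached 276 ± 21.7 CPM in Multiciliated3 and 208 ± 24.7 in Multiciliated2 (SD, n = 6 mice each). *Drc1* reached 216 ± 26.5 CPM in Multiciliated3 but only 32.4 ± 6.61 in Multiciliated2, a level that did not differ beyond the spread from the 29.9 ± 9.60 CPM of Multiciliated1. *Gas8* stepped up beyond the spread from 50.6 ± 9.16 in Multiciliated1 to 95.4 ± 6.82, 162 ± 9.0 and, in Multiciliated4, 255 ± 39.1 CPM (n = 5 mice). *Gas8* was the only one of the 7 for which the ranges of the mice were apart at each of these steps.

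The ratio of Multiciliated3 to Multiciliated2, taken within each mouse, differed between the genes, with *Ccdc39* lowest and *Drc1* highest. The geometric mean over 6 mice was 1.33 for *Ccdc39*, 1.70 for *Gas8* and 1.76 for *Ccdc65*. It was 2.66 for *Ccdc40*, 5.45 for *Tcte1*, 5.82 for *Drc7* and 6.72 for *Drc1*. All 7 ratios were above 1 in 6 of 6 mice. The highest ratio of any mouse for *Ccdc65* was 2.34, and the lowest for *Tcte1*, *Drc7* and *Drc1* were 3.68, 4.63 and 5.10. *Ccdc40*, at 2.09 to 3.77, reached into both ranges. This order was read off the ratios themselves and is a description. The median ratio of all 13237 genes tested in these types was 1.19. The ruler pair was thus unequal in Multiciliated2. Both genes were below their Multiciliated3 level in each mouse, *Ccdc39* by less (ratios of 1.18 to 1.43) than *Ccdc40* (2.09 to 3.77). The base subunits were unequal too, where *Drc1* differed from *Ccdc65* and *Gas8*.

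The 7 other known subunits of the complex, all of which are in the table, spread over the same range. *Iqcg* (Drc9) had a ratio of 1.65 and *Drc3* of 1.83, close to *Gas8* and *Ccdc65*. *Iqcd* (Drc10) had 2.68 and *Ccdc153* (Drc12) 2.85. *Efcab2* (Drc8), *Iqca* (Drc11) and *Fbxl13* (Drc6) had 3.91, 4.61 and 5.57. Each of the 7 was higher in Multiciliated3 in 6 of 6 mice. Outside multiciliated cells *Efcab2*, like *Gas8*, kept a level (4.43 CPM against 23.1 in multiciliated cells), and the multiciliated types held 56.5% of its UMIs, against 94.7% to 98.1% for the other 6.

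**Figure D2:**
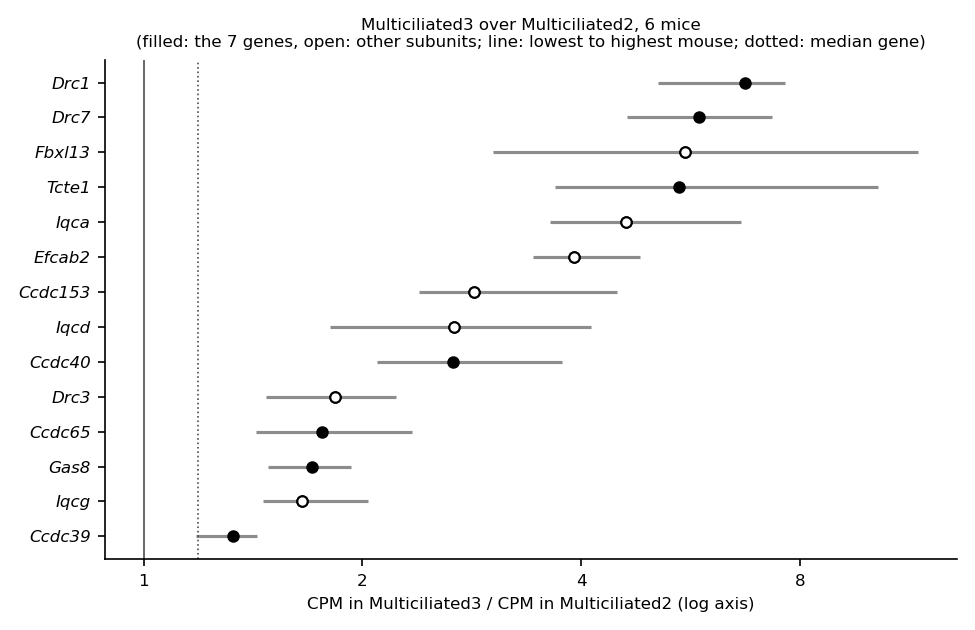
CPM in Multiciliated3 divided by CPM in Multiciliated2 on a log axis; dots are geometric means over 6 mice, filled for the 7 genes and open for other subunits of the complex, and lines run from the lowest to the highest mouse. *Ccdc39* lies near the dotted median gene at 1.19, whereas *Drc1*, *Drc7* and *Tcte1* lie above 5.

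Multiciliated4, the smallest type with a median of 10197 UMIs per cell, differed from Multiciliated3 in both directions. *Drc1*, *Ccdc65* and *Gas8* were higher there than in Multiciliated3 in 5 of 5 mice, by geometric mean ratios of 1.39, 1.17 and 1.57. *Ccdc39*, *Ccdc40*, *Drc7* and *Tcte1* were lower in 5 of 5 mice, with ratios of 0.694, 0.618, 0.617 and 0.545. The median ratio of the 3645 genes tested in Multiciliated4 was 1.22, above that of *Ccdc65*. Other subunits fell on both sides, *Drc3* (1.43), *Iqcg* (1.37), *Efcab2* (1.22) and *Ccdc153* (1.98) being higher in Multiciliated4 in 5 of 5 mice and *Fbxl13* (0.416) lower in 5 of 5. *WT/WT* mouse 2 had 6 cells of this type and was left out. Multiciliated1 had the lowest level of 6 of the 7 genes within the multiciliated types, although for *Drc1* and *Tcte1* it did not differ beyond the spread from Multiciliated2, nor for *Drc7* (19.5 ± 6.08 and 19.3 ± 2.95 CPM). In Multiciliated1 the summed level of 6 secretory markers was 19437 to 34835 CPM over the 6 mice and that of 7 multiciliated markers 1864 to 3117 CPM, against 1019 to 3473 and 8212 to 9422 CPM in Multiciliated3. All 7 multiciliated markers were detected in Multiciliated1, and its name was kept.

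The share of cells with at least 1 UMI gave a similar picture when every cell was thinned to 5000 UMIs, so that depth could not set the order. *Ccdc39* was detected in 71.9% of Multiciliated3 cells and 56.1% of Multiciliated2 cells, and *Drc1* in 63.9% and 15.2%. *Drc7* was detected in 41.7% and 9.33%, and *Tcte1* in 20.2% and 4.2%. In the 19048 other cells the shares were 0.745% for *Ccdc39*, 0.378% for *Drc1*, 0.0472% for *Tcte1* and 8.95% for *Gas8*. Whether free RNA gave any of these UMIs was not tested. The median depth before thinning was 29360 UMIs in multiciliated and 28619 UMIs in other cells. Without thinning, *Drc1* was seen in 94.6% of Multiciliated3 cells, and all 7 genes in 47.7% of these cells, 12.1% of Multiciliated2 cells and 0.0157% of other cells. Of the Multiciliated1 cells, 14.0% had none of the 7.

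**Figure D3:**
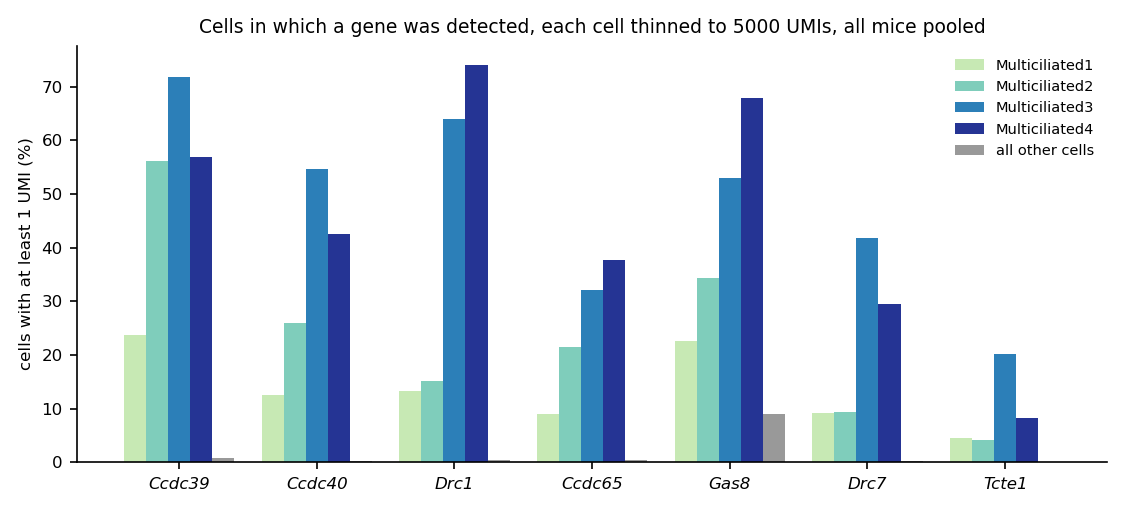
Percentage of cells with at least 1 UMI of each gene, each cell thinned to 5000 UMIs and all mice pooled, in the 4 multiciliated types and in all other cells. The bar of Multiciliated2 is below that of Multiciliated3 for *Ccdc39* (56.1% and 71.9%) and much further below it for *Drc1* (15.2% and 63.9%).

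The pattern over the 16 cell types was compared between genes by Pearson's r of log2(CPM + 1), a description over 16 types that share libraries and depth. *Drc7* and *Tcte1* were the most alike of the 21 pairs of the 7 genes (r = 0.998), and *Ccdc39* and *Gas8* the least (r = 0.921). Of the 11737 genes with at least 10 CPM in some type, the 5 most like *Ccdc39* were *Spag6l*, *Rpgr*, *Ttc25*, *Lrrc56* and *Ak7*, and those most like *Ccdc40* were *Wdr63*, *Maats1*, *Nek11*, *Armc2* and *Spag17*. *Drc1* was most like *Ppp1r36*, *Myl4*, *Eno4*, *Ttll9* and *Cfap58*, and *Ccdc65* most like *C230072F16Rik*, *Lrrc34*, *Cfap70*, *Pih1d2* and *Enkur*. *Gas8* had its nearest genes at lower r, 0.981 to 0.982, namely *Zmynd12*, *Cdkl3*, *Dnaaf4*, *E030044B06Rik* and *6820408C15Rik*. *Drc7* and *Tcte1* each had the other, *Ccdc170*, *Rgs22* and *Cfap44* within their nearest 5, with *Ccdc60* for *Drc7* and *Cfap46* for *Tcte1*. With 0.1 added in place of 1, 1 to 4 of the 5 genes named per member were named again. With Spearman's rho instead, the number was 0 to 2.

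Before the genotypes were compared, the libraries were checked. They held 100961835 to 153326568 UMIs and 332 to 2155 multiciliated cells each, and 67 of 23804 distinct barcodes occurred in more than 1 library. *Dnaaf5* stood at 42.1, 38.2 and 49.4 CPM in the multiciliated cells of the *WT/WT* mice and at 54.8, 54.9 and 49.3 in the *MIS/MIS* mice, and a count cannot show a missense base. Multiciliated3 made up 52.1%, 43.0% and 58.9% of the multiciliated cells of the *WT/WT* mice, and 58.3%, 70.2% and 55.0% in *MIS/MIS* mice MT1301, MT1306 and MT1383. The summed level of 5 basal markers in multiciliated cells was 869 to 1153 CPM in *WT/WT* and 547 to 719 CPM in *MIS/MIS* mice, that of 6 secretory markers 7347 to 13172 and 6218 to 13106 CPM, and that of 5 early multiciliated markers 367 to 571 and 271 to 438 CPM. Of the rarer types, 3 neuroendocrine markers summed to at most 5.19 CPM and 3 ionocyte markers to at most 4.51 CPM.

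In all multiciliated cells pooled by mouse, 0 of the 7 genes were called as different between the genotypes, which does not show that their levels are equal. All 7 had a higher estimate in *MIS/MIS*, from 0.02 for *Gas8* to 0.40 for *Tcte1* on the log2 scale, with adjusted p of 0.896 to 0.98 (limma's voom test on the UMIs summed per mouse, Benjamini-Hochberg adjustment over 14206 genes). The test called 0.00704% of all genes, and 4.32% were under an unadjusted p of 0.05, against 0 of the 7 genes. The limma-trend method also called 0 of the 7. The 2 groups of mice overlapped for 7 of 7 genes, where 10.0% of all genes did not overlap.

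*Ccdc39*, the ruler gene with the most UMIs, stood at 191, 191 and 204 CPM in *WT/WT* mice 1, 2 and 3 and at 183, 252 and 206 CPM in *MIS/MIS* mice MT1301, MT1306 and MT1383. One *MIS/MIS* mouse lay below all *WT/WT* mice and the others above them. The log2 fold change was 0.09 (standard error 0.12, 95% confidence interval -0.18 to 0.37). *Drc1* stood at 110, 88.1 and 139 CPM in *WT/WT* and at 111, 195 and 126 CPM in *MIS/MIS* mice, a log2 fold change of 0.32 (standard error 0.23, -0.22 to 0.86). The high *MIS/MIS* value is again that of mouse MT1306, which also had the highest share of Multiciliated3 cells. Whether that share plays a part in the value was not tested.

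*Tcte1* stood at 25.4, 17.2 and 23.9 CPM in *WT/WT* and at 22.6, 36.2 and 29.3 CPM in *MIS/MIS* mice. Its log2 fold change of 0.40 (standard error 0.21, -0.08 to 0.87) was the highest of the 7. *Ccdc40*, the partner of *Ccdc39* in the ruler, had 0.19 (0.14), *Drc7* 0.25 (0.16), *Ccdc65* 0.16 (0.11) and *Gas8* 0.02 (0.10), with standard errors in brackets.

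The median log2 fold change of the 7 genes was 0.19, against 0.01 for all genes tested. When the same number of cells was drawn from each mouse, 82 of Multiciliated1, 55 of Multiciliated2 and 173 of Multiciliated3, the median was 0.02. This was a random draw without Multiciliated4 cells, and the part of cluster composition in the result was not tested. With all multiciliated cells but without mouse MT1306 the median was 0.07, and without mouse MT1301 it was 0.29. Single genes moved with the same mouse: without MT1306 *Drc1* was 0.07, *Drc7* 0.07, *Ccdc40* 0.03, *Ccdc65* 0.07 and *Tcte1* 0.26. Without *WT/WT* mouse 2 *Drc1* was 0.16, *Drc7* 0.16 and *Tcte1* 0.21, and without MT1301 *Drc1* was 0.50, *Ccdc40* 0.29 and *Ccdc65* 0.25. The basal marker levels given above were lower in *MIS/MIS* mice and were the only ones of those lists that did not overlap between the genotypes. Their part in the result was not tested.

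**Figure D4:**
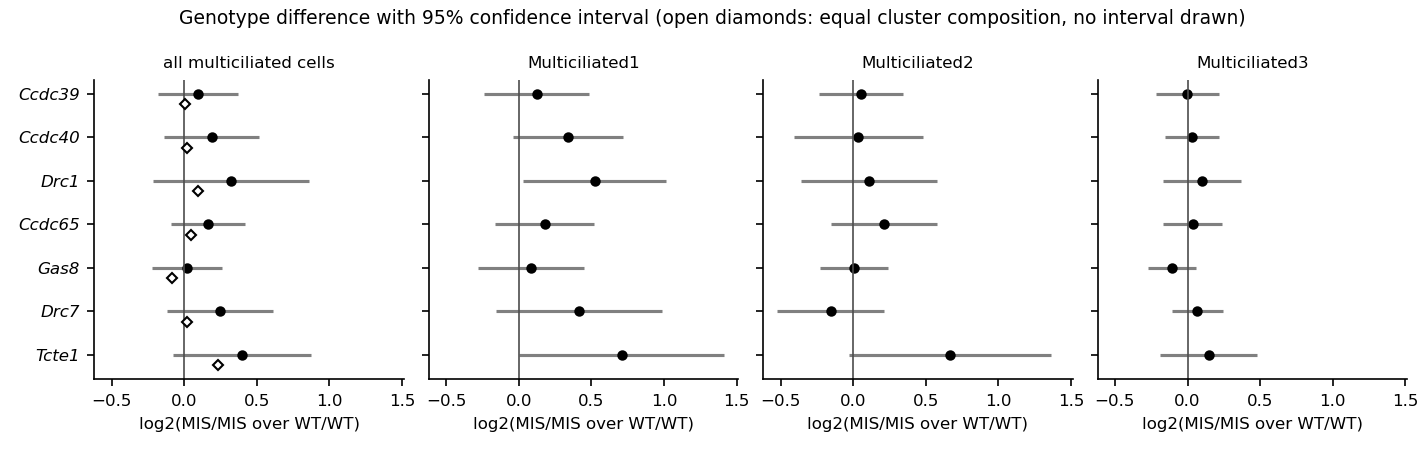
Log2 fold change of *MIS/MIS* over *WT/WT* for each gene with its 95% confidence interval, in all multiciliated cells and in 3 of the multiciliated types. Open diamonds give the estimate from a random draw of the same numbers of Multiciliated1, Multiciliated2 and Multiciliated3 cells from each mouse, without Multiciliated4. The intervals cross 0 except those of *Drc1* and *Tcte1* in Multiciliated1, and all 7 estimates lie between -0.11 and 0.15 in Multiciliated3.

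Multiciliated3, which held most of the multiciliated cells, gave the narrowest intervals. There 0 of the 7 genes passed (adjusted p of 0.978 to 0.999), 0 had an unadjusted p under 0.05, and limma-trend called 0. The background was 0.0229% of 13096 genes called and 4.50% under an unadjusted p of 0.05. *Ccdc39* stood at 283, 269 and 273 CPM in *WT/WT* and at 240, 306 and 283 CPM in *MIS/MIS* mice. The *WT/WT* mice lay inside the range of the *MIS/MIS* mice, and the log2 fold change was -0.00 (interval -0.22 to 0.21, or 0.861 to 1.16 as a fold). *Gas8* stood at 172, 170 and 163 CPM in *WT/WT* and at 148, 164 and 156 CPM in *MIS/MIS* mice, the lowest estimate of the 7 (-0.11, interval -0.27 to 0.05). *Drc1* had 0.10 (-0.17 to 0.37), *Tcte1* 0.15 (-0.19 to 0.48), *Drc7* 0.07 (-0.11 to 0.24), *Ccdc65* 0.03 (-0.17 to 0.24) and *Ccdc40* 0.03 (-0.15 to 0.22). The mice of the 2 genotypes overlapped for 7 of 7 genes, against 9.61% of all genes that did not. The median of the 7 was 0.03, and that of all genes tested -0.00. Without mouse MT1306 the median of the 7 was -0.01, and without *WT/WT* mouse 1 it was 0.10. Basal markers summed to 141 to 257 CPM in the *WT/WT* and 87.6 to 115 CPM in the *MIS/MIS* mice of this type.

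In Multiciliated1, all 7 estimates were again above 0, with a median of 0.34, and 0 of 7 passed (adjusted p of 0.994 for each, limma's voom test). *Drc1* and *Tcte1* had unadjusted p of 0.0399 and 0.0495, where 3.97% of 11446 genes were under 0.05 and 0.00874% were called. *Drc1* stood at 20.1, 30.0 and 21.7 CPM in *WT/WT* and at 25.7, 45.1 and 37.0 CPM in *MIS/MIS* mice. The highest *WT/WT* mouse lay above the lowest *MIS/MIS* mouse, and the log2 fold change was 0.52 (standard error 0.22, interval 0.03 to 1.02). *Tcte1* stood at 4.07, 7.21 and 4.94 CPM in *WT/WT* and at 8.22, 5.29 and 10.9 CPM in *MIS/MIS* mice (0.71, standard error 0.31, interval 0.00 to 1.41). A UMI of *Tcte1* was seen in 19.9% of the cells of this type. The other 5 genes ran from 0.08 for *Gas8* to 0.42 for *Drc7*. The median of the 7 was 0.54 without *WT/WT* mouse 2 and 0.17 without *WT/WT* mouse 3. With limma-trend 0 of 7 passed. None of the 7 separated the mice by genotype, against 7.82% of all genes. In the same cells the 5 basal markers summed to 2478 to 2977 CPM in *WT/WT* and 1827 to 2396 CPM in *MIS/MIS* mice, and the secretory markers to 19437 to 34835 and 19598 to 29798 CPM. Taken singly, 5 of the 6 secretory markers had estimates above 0 (median 0.74), with *Muc5b* at 1.92 and its mice apart, as had 7 of the 7 multiciliated markers (median 0.19), and 0 of either list passed. Whether these play a part in the result was not tested.

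In Multiciliated2, estimates ran from -0.15 for *Drc7* to 0.67 for *Tcte1*, and 0 of 7 passed by voom or limma-trend (adjusted p of 0.987 to 1.00 by voom). The background was 0.00857% of 11674 genes called, and 3.49% under an unadjusted p of 0.05, against 0 of the 7. *Tcte1* stood at 4.83, 6.70 and 7.51 CPM in *WT/WT* and at 6.90, 10.8 and 13.3 CPM in *MIS/MIS* mice, so that 1 *MIS/MIS* mouse lay within the *WT/WT* range (standard error 0.31, interval -0.03 to 1.36). *Ccdc39* stood at 199.4, 188 and 221 CPM in *WT/WT* and at 175, 227 and 240 CPM in *MIS/MIS* mice (0.06, interval -0.23 to 0.35). The median was 0.06, and it was -0.06 without mouse MT1383 and 0.20 without mouse MT1301. Basal markers summed to 615 to 905 CPM in *WT/WT* and 421 to 599 CPM in *MIS/MIS* mice, and their part was not tested. The genotypes overlapped for 7 of 7 genes, against 7.77% of all genes that did not.

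In Multiciliated4, with 2 *WT/WT* and 3 *MIS/MIS* mice, *Tcte1* was too low to be tested and 0 of the other 6 genes passed by voom or limma-trend. The background was 0.247% of 3645 genes called, and 5.35% under an unadjusted p of 0.05, against 0 of the 6. *Drc1* stood at 221 and 325 CPM in *WT/WT* and at 319, 341 and 346 CPM in *MIS/MIS* mice, with a log2 fold change of 0.36 (interval -0.02 to 0.73). With cells thinned to 5000 UMIs it was -0.04, without *WT/WT* mouse 1 it was 0.11 and without *WT/WT* mouse 3 it was 0.59. The groups overlapped for 6 of 6 genes, where 21.0% of all genes did not.

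**Figure D5:**
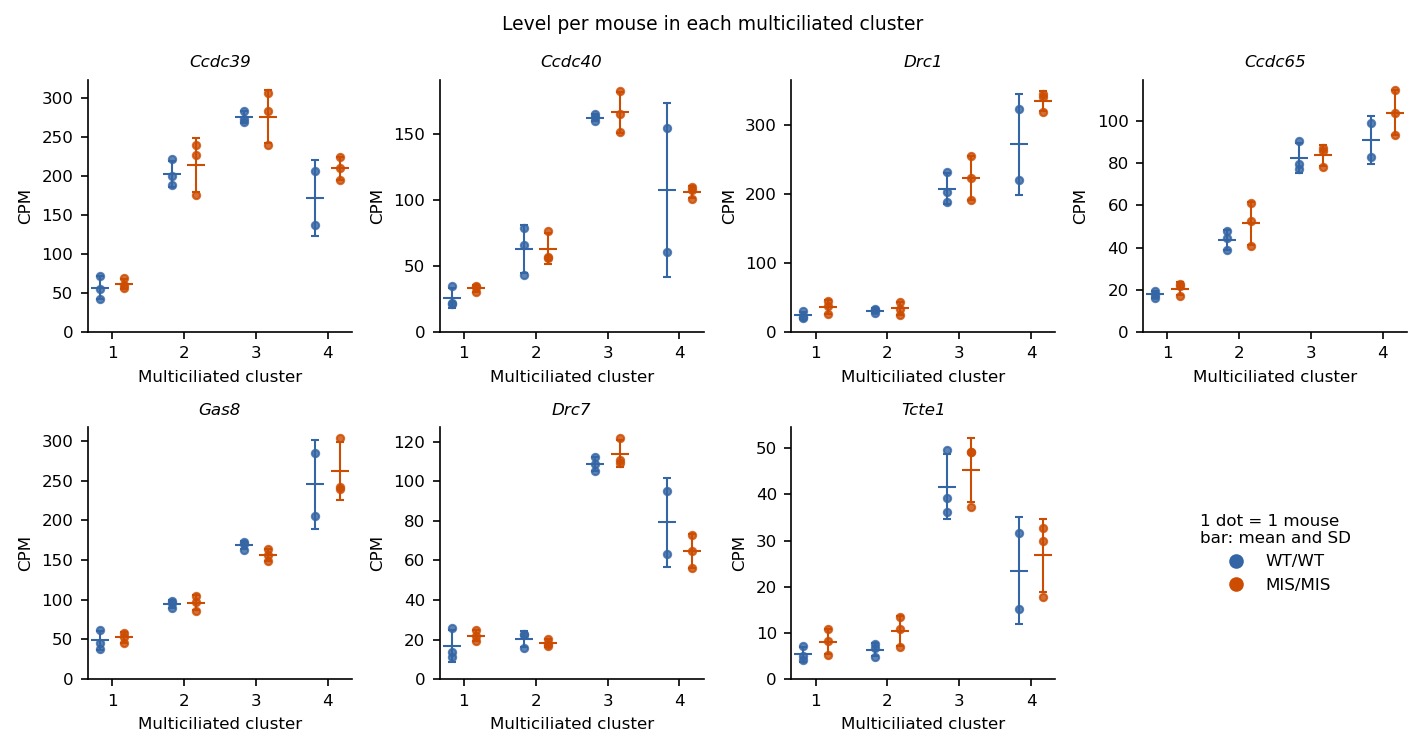
CPM of each gene in the 4 multiciliated types, with 1 dot per mouse, and mean and SD per genotype. The dots of the 2 genotypes overlap in each panel and type. The levels of the types differ, for *Drc1* from a mean of 29.9 CPM in Multiciliated1 to 310 CPM in Multiciliated4.

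The difference of the genotype effect between Multiciliated3 and Multiciliated2 was tested directly, with both types of a mouse in 1 fit. It called 0 of the 7 genes, and 0% of 13237 genes in all, with 4.23% under an unadjusted p of 0.05 and 0 of the 7 among them. *Tcte1* had the largest estimate (-0.56, standard error 0.28, interval -1.17 to 0.06). Its log2 fold change was 0.67 in Multiciliated2 and 0.15 in Multiciliated3. For the other genes the difference lay between -0.21 for *Ccdc65* and 0.18 for *Drc7*. The limma-trend method called 0 as well.

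The balance of the 7 genes was compared as the share of each in their summed CPM. In *WT/WT* mice *Gas8* took 17.8% ± 1.05, and in *MIS/MIS* mice it took 16.1% ± 0.953 (SD, n = 3 each). Only *Drc1* was further apart, at 16.9% ± 2.44 and 18.7% ± 2.07. The two-sided exact permutation p was 0.2 for *Gas8* and 0.4 for *Drc1*, and between 0.2 and 1 for all 7. With 3 mice a genotype no exact p can fall below 0.1. The shares of multiciliated cells with a UMI at 5000 UMIs per cell were higher in *MIS/MIS* mice for 7 of 7 genes. *Ccdc40*, the furthest apart, was seen in 34.9% ± 3.56 of *WT/WT* and 43.5% ± 6.89 of *MIS/MIS* cells (SD, n = 3 mice, exact permutation p = 0.2), with 31.3% to 38.4% in *WT/WT* and 38.3% to 51.3% in *MIS/MIS* mice. At 10000 UMIs per cell *Drc1* was the furthest apart, by 9.06 percentage points (exact permutation p = 0.4), and *Ccdc40* differed by 5.11 points. At that depth the ranges of *Drc7* were just apart, at 38.5% to 44.1% of *WT/WT* and 44.2% to 56.1% of *MIS/MIS* cells (exact permutation p = 0.1). They overlapped at 5000 UMIs (24.1% to 28.7% and 26.5% to 35.8%) and without thinning (64.1% to 68.9% and 61.6% to 80.0%). The share of all genes that separate the mice on this measure was not computed.

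The rest of the complex gave values of the same size. Of the 7 other subunits, 0 were called in all multiciliated cells, in any of the 4 types or in the difference between types. In all multiciliated cells 7 of 7 estimates were above 0, with a median of 0.23 and a range of 0.10 for *Iqcg* to 0.33 for *Iqca*, where 51.5% of all genes were above 0. *Ccdc153* and *Drc3* were the 2 of the 7 whose mice did not overlap between genotypes, against 10.0% of all genes. In Multiciliated3 their median was 0.03, as it was for the 7 genes described above, with a range of -0.01 to 0.14.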

How the data were processed

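The authors dissociated the ALI cultures, made droplet libraries primed at the poly-A tail, processed the reads with Cell Ranger (version 7.1.0 with mm10 in the submitters' processing notes, although the paper's text names an earlier version), used Seurat to filter and cluster cells, and deposited the UMI counts (genes by cells) beside a second table naming the cell type of each. The 6 libraries are 3 *WT/WT* and 3 *MIS/MIS* mice. The deposited tables separate values by a mistyped tab. Every count was whole, and 0 cells differed from the total in the cell table. That separator kept the values from being registered here as counts, although they could be read as such. For that reason limma 3.58.1 in R 4.3.3 replaced the negative binomial test that had been planned. The *MIS/MIS* libraries carry animal numbers found in no sample title, and were used as replicates of the genotype. The animals are separate mice, but 1 culture and library each.

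UMIs were summed per mouse and cell type where a mouse had at least 10 cells, scaled by TMM (trims of 0.3 and 0.05), and fitted with voom over all genes with at least 10 UMIs in a library of median size and 15 in total. The fit was also tried on simulated data. The changes set there were larger than any estimate given for the 7 genes, so that trial does not cover differences of their size. Adjusted p-values are Benjamini-Hochberg values over all genes tested, with a threshold of 0.05. Shares of cells rest on cells thinned to 5000 UMIs, for which 0 multiciliated cells were too shallow, and counting error is not included in them. Two-sided exact permutation tests over mice carried no adjustment over the 7 genes. Levels over cell types are means over mice. The table holds 655 cells above the upper limit of genes per cell that the paper states, which were kept. Doublets were not called. Gene positions are from GENCODE M21 and promoters from RefSeq, both on GRCm38. Named genes were the 7 members, 7 other subunits, 9 neighboring genes, 7 regulators, marker lists and, per member, the 5 genes with the highest r. GTTGCT was added to the motifs after the promoters had been read. The members and lists were chosen with earlier results of these data known. Alternatives were median-of-ratios scaling, no filter, each mouse left out, thinned cells, the stated cell filters and equal composition; limma-trend and fits without each multiciliated type were chosen after seeing the data. Python 3.11.15 was used for other steps.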

Additional observations from a re-analysis of the deposited data

How the results depend on the processing

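Over 68 alternative fits of the 6 comparisons, 0 of the 7 genes were called, and the lowest adjusted p was 0.306, for *Tcte1* in Multiciliated2 without mouse MT1301. Depth limits *Tcte1* most, which was too low for a test in Multiciliated1 and Multiciliated2 once cells were thinned to 5000 UMIs, and in Multiciliated4 throughout. No paired analysis was possible because the numbers in the sample titles count separate mice in each genotype and the columns of the *MIS/MIS* libraries carry no number shared with *WT/WT*. The planned negative binomial tests were not run, since the deposited separator kept the values from being registered as counts. Leaving out *WT/WT* mouse 1 or 3 left 1 *WT/WT* mouse in Multiciliated4, assumed to vary like the others.

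Estimates changed sign with no call either way, and the cause was not tested. On the log2 scale *Gas8* in all multiciliated cells was -0.0326 with thinned cells, -0.0209 without Multiciliated1 and -0.0126 without Multiciliated2. At equal composition, a random draw without Multiciliated4 cells, it was -0.0810. With thinned cells *Gas8* was -0.0236 in Multiciliated1, -0.0418 in Multiciliated2 and -0.0812 in Multiciliated4, *Ccdc40* was -0.234 in Multiciliated2, *Ccdc65* was -0.0573 in Multiciliated3 and *Drc1* was -0.0401 in Multiciliated4. *Ccdc39* in Multiciliated3 was 0.0137 without a filter on low counts and 0.0318 with the stated cell filters. Without the filter on low counts, the difference of the genotype effect between Multiciliated3 and Multiciliated2 was 0.00936 for *Drc1* and 0.0549 for *Ccdc40*. The share of *Ccdc65* differed by 0.0249 percentage points in Multiciliated3 alone.

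With each mouse left out in turn, estimates that changed sign in all multiciliated cells ran from -0.0408 to 0.206 for *Ccdc39* and from -0.0952 to 0.0919 for *Gas8*. In Multiciliated1 they ran from -0.0487 to 0.288 for *Ccdc39* and from -0.0570 to 0.252 for *Gas8*. In Multiciliated2 they ran from -0.0361 to 0.196 for *Ccdc39*, from -0.166 to 0.341 for *Drc1*, from -0.0627 to 0.0855 for *Gas8* and from -0.150 to 0.170 for *Ccdc40*. In Multiciliated3 they ran from -0.0862 to 0.0920 for *Ccdc39*, from -0.0140 to 0.200 for *Drc1*, from -0.0444 to 0.0908 for *Ccdc40* and from -0.0282 to 0.113 for *Ccdc65*. In Multiciliated4 they ran from -0.508 to 0.140 for *Drc7*, from -0.0934 to 0.2998 for *Gas8* and from -0.500 to 0.740 for *Ccdc40*. The difference between Multiciliated3 and Multiciliated2 ran from -0.123 to 0.0191 for *Ccdc39*, from -0.187 to 0.239 for *Drc1* and from -0.132 to 0.192 for *Ccdc40*. In percentage points, the share of *Ccdc40* ran from -0.108 to 0.461, that of *Ccdc65* from -0.299 to 0.299, and the share of cells with a UMI of *Gas8* from -2.18 to 2.70.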

Other observations

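Genes of structures that stand next to the complex, namely the base of the radial spokes and the inner arm tethers, were followed in the same cells. Of the 9 genes listed, 9 were found, *Cfap91* under its older symbol *Maats1* and *Cfap251* as *Wdr66*. All 9 had 94.9% to 98.4% of their UMIs in multiciliated cells. In all multiciliated cells 9 of 9 estimates of *MIS/MIS* over *WT/WT* lay above 0, their median on the log2 scale was 0.22, and 0 passed the adjusted threshold. *Cfap57*, a protein of an inner arm, was 0.34 higher in *MIS/MIS* mice on the log2 scale (standard error 0.14), which did not pass (adjusted p = 0.896 in limma's voom test). It stood at 45.0, 43.0 and 50.5 CPM in *WT/WT* and at 51.2, 72.7 and 56.5 CPM in *MIS/MIS* mice. Of the 9 genes, 2 had mice that did not overlap between the genotypes, where 10.0% of all genes did not overlap. An unadjusted p under 0.05 in limma's voom test was reached by 1 of the 9, against 4.32% of all genes. In Multiciliated3 the median of the 9 was 0.05, with 7 of 9 above 0.

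Of 7 regulators of multiciliated cells, 0 passed in any comparison. *Trp73*, which acts upstream of *Foxj1*, stood at 14.3, 13.1 and 16.7 CPM in *WT/WT* multiciliated cells and at 17.9, 19.7 and 19.0 CPM in *MIS/MIS* mice, without overlap (log2 fold change 0.34, standard error 0.11, adjusted p = 0.896 in limma's voom test). Of the 7 regulators *Trp73* alone was without overlap, where 10.0% of all genes did not overlap. In Multiciliated3 it had 0.33 (standard error 0.12). *Foxj1*, the main factor of motile cilia genes, had -0.06 (0.11) in all multiciliated cells, *Rfx2* 0.16 (0.12), *Rfx3* 0.16 (0.13), *Gmnc* 0.23 (0.49), *Myb* -0.19 (0.15) and *Mcidas* -0.44 (0.29). *Foxj1* was highest in Multiciliated2 (717 CPM, against 346 in Multiciliated3), whereas *Rfx2* and *Rfx3* were highest in Multiciliated3 (73.7 and 95.9 CPM, against 43.4 and 41.4 in Multiciliated2).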
